A study of Solanum lycopersicum with 27 samples.

Results

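The genes described here are the nuclear genes of the Rubisco small subunit and of Rubisco activase, followed in shoots and roots of M82 tomato seedlings that were moved to 4°C or kept at 24°C. They are 5 genes chosen by their IDs, among 20545 features listed for shoots and 20680 for roots: Solyc02g063150, Solyc02g085950 and Solyc03g034220 as small subunit genes, and Solyc10g086580 and Solyc09g011080 as activase genes. These names came with the gene list. The deposited tables hold IDs only, and none of the 22007 nuclear IDs could be matched in the reference table, so the names were not checked against an annotation. All 5 genes were present in both tables and passed the filter on low values in both organs.

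Rubisco fixes CO2 in the chloroplast and is built from large subunits, encoded in the plastid genome by rbcL, and small subunits, encoded in the nucleus by a small family of similar genes. Rubisco activase is a nuclear-encoded chloroplast ATPase that frees the Rubisco active site from bound sugar phosphates. In leaves, transcripts of both nuclear families are among the most abundant, depend on light and vary over the day.

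Shoots gave 18 libraries and roots gave 9. Seedlings were 18 days old, grown hydroponically under long days, and every library was a pool of whole shoots or whole roots of several seedlings of the inbred line M82, with no transgene. T0 samples (6 of shoots, 3 of roots) were taken at 24°C, 2.5 h after lights on, and the other groups hold 3 libraries each: shoots after 30 min and after 3 h at 4°C or 24°C in the light, and roots after 3 h at 4°C or 24°C. The 24°C groups therefore show the same hours of the morning without chilling, and 30 min and 3 h groups were each compared with their own 24°C control.

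The deposited values are normalized counts, scaled by the authors so that all libraries of an organ share 1 total. Totals ran from 20328938 to 20332140 in shoots and from 37775630 to 37777083 in roots, so the values hold no sequencing depth. Shoot T0 replicates 1 to 3 and the 3 h libraries were listed by the study with fewer bases per read than T0 replicates 4 to 6 and the 30 min libraries. The supplement also names batches by the same split: 3 T0 samples shared a batch with the 3 h shoot samples and 3 shared another with the 30 min samples, with no replicate numbers given. Read format was the same within each comparison of 4°C with 24°C, and it split the T0 group. In shoots, a difference between 30 min and 3 h therefore cannot be told apart from one between batches or read formats. Tests below are limma fits on log2(value + 1) over all features of an organ, with Benjamini-Hochberg adjustment over all features tested, and a gene was called when its adjusted p was under 0.01. Log2 differences are on this log2(value + 1) scale. The p-values measure the spread between these pools of seedlings.

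In shoots, the 5 genes split by role after 3 h. Both activase genes were higher at 4°C than at 24°C, whereas none of the 3 small subunit genes passed the test. Thus 2 of the 5 genes were called, a share close to the 39.5% of all 20535 features tested. Both were called higher, where 9.63% of features were called higher. These are bulk samples, in which fewer cells of a type and less RNA per cell cannot be told apart.

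Solyc10g086580, an activase gene, read 260722, 253785 and 236029 normalized counts at 3 h in 4°C. It read 146975, 135653 and 137699.5 at 3 h in 24°C. The chilled and control libraries did not overlap. The log2 difference was 0.84 (SE 0.059, limma adjusted p = 1.59e-09), a 1.79-fold higher level at 4°C with a 95% interval of 1.64 to 1.95.

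The other activase gene, Solyc09g011080, moved further. It read 5154, 5326 and 4904 normalized counts in the chilled libraries and 1410.3, 1524 and 1737 in the controls. Again the groups did not overlap, and the log2 difference was 1.72 (SE 0.073, limma adjusted p = 1.24e-12), or 3.30-fold with an interval of 2.97 to 3.67. The ratio of Solyc09g011080 to Solyc10g086580 within a library, on a log2 scale and not corrected for gene length, was -5.61 ± 0.0461 (SD, n = 3) at 4°C and -6.50 ± 0.198 (SD, n = 3) at 24°C, a difference of 0.89. All 3 chilled libraries had a higher ratio than all 3 controls, which gave p = 0.1 in a two-sided exact permutation test, the smallest value that 3 libraries against 3 allow.

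**Figure D1:**
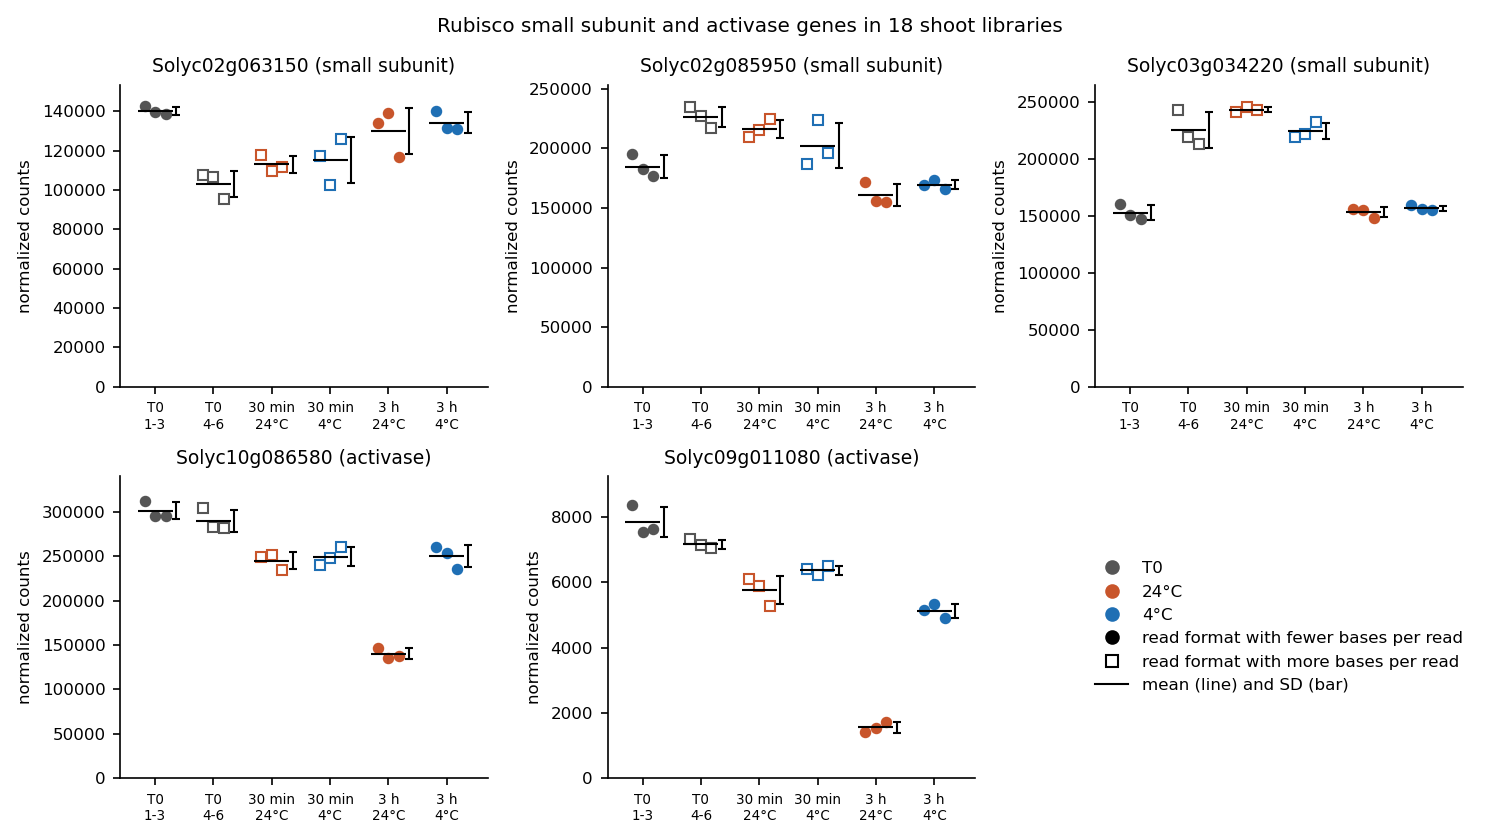
Normalized counts of the 5 genes in each of the 18 shoot libraries, with the T0 group split by read format (filled circles for fewer bases per read, open squares for more). Black lines are group means and bars are SDs. Both activase genes are lowest at 3 h in 24°C (140109 on average for Solyc10g086580, 1557 for Solyc09g011080), while Solyc03g034220 reads at most 160503 in every filled library and at least 213057 in every open one.

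The small subunit genes stayed close to their controls at 3 h. Solyc02g063150 read 140276, 131333 and 131008 normalized counts at 4°C and 134075, 139077 and 116879 at 24°C. Solyc02g085950 read 168976, 173611 and 166337 at 4°C and 171712, 155597 and 155427 at 24°C. For both genes the chilled and control libraries overlapped. Solyc03g034220 read 159524, 156382 and 155154 at 4°C against 155923, 155646 and 148266 at 24°C, and these groups overlapped as well. The log2 differences were 0.05 (95% interval -0.11 to 0.21, limma adjusted p = 0.609) for Solyc02g063150, 0.08 (-0.06 to 0.22, adjusted p = 0.345) for Solyc02g085950 and 0.04 (-0.08 to 0.15, adjusted p = 0.62) for Solyc03g034220. A level up to 1.16-fold higher in the cold lies within the intervals of the first 2 of these genes.

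These differences depend on what the values are scaled to. The median of all tested features lay at -0.28 on the log2 scale in the same comparison, so that the small subunit genes stood at the 74.1 to 76.1 percentile of all differences. When libraries were rescaled by the median ratio of nuclear genes, all 3 small subunit genes were called higher at 4°C, with log2 differences of 0.31 for Solyc02g063150, 0.34 for Solyc02g085950 and 0.30 for Solyc03g034220 (limma adjusted p from 0.00464 to 0.00674). On that scale 5 of the 5 genes were called higher, where 15.4% of tested features were. The activase genes then differed by 1.10 (Solyc10g086580) and 1.99 (Solyc09g011080). The call for the small subunit genes therefore depended on the scale, while both activase genes were called higher on either scale.

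**Figure D2:**
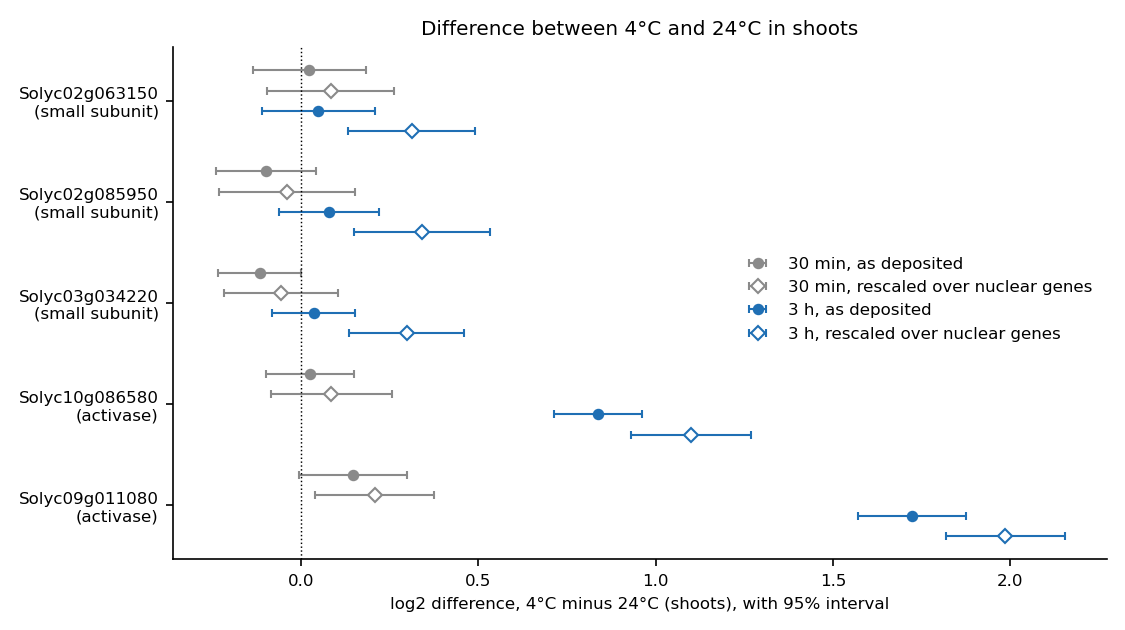
Log2 difference of 4°C minus 24°C in shoots for the 5 genes, with 95% intervals (bars), at 30 min (grey) and at 3 h (blue). Filled circles are values as deposited and open diamonds are values rescaled over nuclear genes. At 3 h the activase intervals lie above 0.71, while the small subunit intervals include 0 as deposited and lie above 0.13 once rescaled.

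After 30 min, none of the 5 genes was called between 4°C and 24°C, where 6.07% of tested features were. Solyc10g086580 read 239760.1, 247319 and 260597 normalized counts at 4°C and 249374, 251172 and 234543 at 24°C, with a log2 difference of 0.02 (95% interval -0.10 to 0.15). Solyc09g011080 read 6394, 6219 and 6491 at 4°C and 6109, 5891 and 5279 at 24°C. Its groups did not overlap, but the log2 difference of 0.15 (95% interval -0.01 to 0.30, limma adjusted p = 0.221) did not pass the test. The 3 small subunit genes had log2 differences from -0.12 to 0.02, with adjusted p from 0.208 to 0.894. Of these, Solyc03g034220 was lower in every chilled library (219145, 222372 and 232539) than in every control (241823, 245693 and 243066), with a limma adjusted p of 0.208.

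The growth of the cold difference from 30 min to 3 h was tested directly. It was called for both activase genes, where 11.7% of tested features were called: the log2 difference at 3 h exceeded that at 30 min by 1.58 (SE 0.103, limma adjusted p = 7.76e-09) for Solyc09g011080 and by 0.81 (SE 0.083, adjusted p = 1.59e-06) for Solyc10g086580. For the small subunit genes it was 0.03 (Solyc02g063150), 0.18 (Solyc02g085950) and 0.15 (Solyc03g034220), and none passed (adjusted p from 0.179 to 0.889). Over all alternatives tried, the activase values ranged from 1.51 to 1.78 and from 0.78 to 1.01 and stayed called in 30 of 30 each.

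Comparison with T0 places these differences in the course of the morning. The T0 level of Solyc10g086580 ran from 281085 to 311982 normalized counts (median 295279, n = 6). By 3 h at 24°C it had fallen by 1.07 on the log2 scale (SE 0.051, limma adjusted p = 7.02e-12), and its mean was 47.5% of the T0 mean. At 3 h in 4°C it had fallen by 0.24 (SE 0.051, adjusted p = 0.00124), and its mean was 84.8% of T0. Solyc09g011080 ran from 7044 to 8376 normalized counts at T0 (median 7432, n = 6). It fell by 2.27 (SE 0.063, limma adjusted p = 5.1e-15) at 24°C, to 20.7% of the T0 mean, and by 0.55 (SE 0.063, adjusted p = 1.79e-06) at 4°C, to 68.3%. The activase genes were thus lower than T0 in both arms at 3 h, with the smaller fall in the cold. After rescaling over nuclear genes, the fall of Solyc10g086580 at 4°C was 0.14 and no longer passed (adjusted p = 0.125).

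At 30 min the activase genes were slightly below T0. Solyc10g086580 fell by 0.27 at 24°C (limma adjusted p = 0.000775) and by 0.24 at 4°C (adjusted p = 0.00225), and every 30 min library was below every T0 library. Solyc09g011080 fell by 0.38 at 24°C (adjusted p = 0.000212), and its difference of -0.24 at 4°C missed the threshold (adjusted p = 0.0121). These small differences were less stable than those at 3 h. After rescaling over nuclear genes, only the fall of Solyc09g011080 at 24°C passed (adjusted p = 0.00166). With T0 libraries of the same read format as the 30 min libraries, the differences at 4°C did not pass for Solyc10g086580 (adjusted p = 0.019) or Solyc09g011080 (adjusted p = 0.131).

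For the small subunit genes, calls against T0 depended on which T0 libraries were used. With the mean of both T0 sets as reference, 4 of the 5 genes were called at 3 h in 24°C, all 4 lower (40.2% of tested features were called, and 13.9% called lower), and 4 of the 5 at 3 h in 4°C (24.4% of features). At 30 min, 3 of the 5 were called at 24°C (16.1% of features) and 2 of the 5 at 4°C (11.5% of features). With T0 of the same read format, no small subunit gene was called in any of the 4 comparisons. The genes called were then both activase genes at 3 h in 24°C (25.6% of features called) and in 4°C (14.1%), both at 30 min in 24°C (8.49%), and none at 30 min in 4°C (7.1%). For Solyc03g034220 the difference between 24°C at 3 h and T0 was -0.28 (limma adjusted p = 0.00012) with both T0 sets and 0.00 (95% interval -0.12 to 0.12, adjusted p = 0.98) with the same format.

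Compared directly, T0 replicates 4 to 6 and 1 to 3, which are both unchilled, differed in all 3 small subunit genes and in neither activase gene, where 23.5% of tested features were called. Solyc03g034220 read 160503, 150957 and 147821 normalized counts in replicates 1 to 3 and 243274, 219970.3 and 213057 in replicates 4 to 6, a log2 difference of 0.56 (SE 0.056, limma adjusted p = 9.13e-07). Solyc02g085950 was higher in replicates 4 to 6 by 0.29 (adjusted p = 0.00225). Solyc02g063150 went the other way, with 142592, 139713 and 138792 in replicates 1 to 3 and 107406, 106605 and 95463 in replicates 4 to 6, a log2 difference of -0.45 (adjusted p = 0.000195).

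The make-up of the summed values of the 3 listed small subunit genes differed in the same way. The reference names 4 small subunit loci, which could not be paired with these IDs. The 3 genes may therefore not be the whole family. Within the summed values of the 3 genes, Solyc02g063150 took 27.8% to 30.9% in the 9 libraries with fewer bases per read and 18.2% to 22.7% in the 9 with more. Solyc03g034220 took 31.9% to 35.3% in the former and 39.7% to 43.1% in the latter, and neither range overlapped. The shares of Solyc02g085950 overlapped (34.6% to 39.2% and 35.4% to 41.3%). Temperature left little trace in these shares: at 3 h Solyc02g063150 held 29.1% ± 0.74 (SD, n = 3) at 4°C and 29.2% ± 1.55 at 24°C, and Solyc03g034220 held 34.1% ± 0.20 and 34.5% ± 0.74. Small subunit copies are similar in sequence. The study states mapping by BBMap with default parameters and counting by featureCounts, and does not describe how reads that match several copies were assigned. Values of single copies are therefore less certain than their sum. The part of read format or batch in these shares was not tested, and time, batch and format cannot be told apart between 30 min and 3 h libraries.

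**Figure D3:**
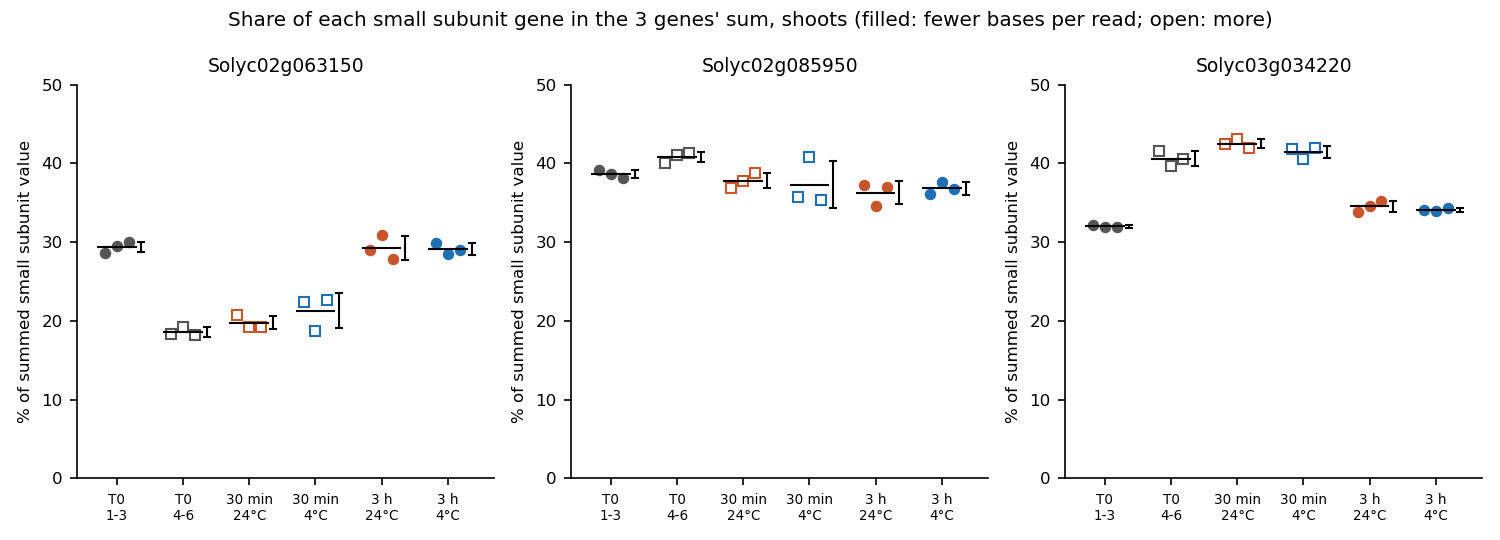
Share (%) of each small subunit gene in the summed value of the 3 genes, by shoot library, with group means (lines) and SDs (bars). Filled circles have fewer bases per read and open squares more. Solyc02g063150 lies at 27.8% or above in all filled libraries and at 22.7% or below in all open ones, and Solyc03g034220 shows the reverse.

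Summed over the 3 genes, the small subunit value at 3 h was 460867 ± 8148 normalized counts (SD, n = 3) at 4°C and 444201 ± 21241 at 24°C, or 2.27% and 2.19% of the library total. For the activase pair it was 255307 ± 12899 at 4°C and 141666 ± 5928 at 24°C, or 1.26% and 0.70% of the total. The activase sum divided by the small subunit sum was 0.646 ± 0.00758 in T0 replicates 1 to 3, 0.554 ± 0.0187 after 3 h of chilling and 0.319 ± 0.0136 in the 3 h controls (SD, n = 3 each, all of the same read format, not corrected for gene length). Those 3 ranges did not overlap.

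The plastid gene of the large subunit, rbcL, behaved unlike the nuclear small subunit genes. It read 34258, 35059.7 and 34084 normalized counts in the chilled 3 h libraries, while the matching controls read 776, 830.2 and 1221. The groups were far apart, with a log2 difference of 5.22 (SE 0.263, limma adjusted p = 1.47e-11). At 30 min it read 13371, 16247 and 12216 at 4°C and 468, 887 and 1254 at 24°C, a log2 difference of 4.10 (SE 0.263, adjusted p = 2.05e-09). The value of rbcL per 100 of the small subunit sum was 7.48 ± 0.153 in chilled 3 h shoots and 0.214 ± 0.0664 in their controls (SD, n = 3). The study's methods name an Illumina TruSeq RNA kit and do not state how RNA was selected for the libraries. How fully plastid transcripts were captured is therefore unknown, and whether capture differed between libraries was not tested. The ratio compares normalized counts, not corrected for gene length, and cannot be read as a ratio of transcript numbers.

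The higher rbcL value at 4°C was shared by most plastid genes tested. Among 44 tested plastid genes of the photosystems, the cytochrome complex, ATP synthase and the NDH complex, 43 were called higher at 4°C at 30 min and 42 at 3 h, with none lower and medians of 3.98 and 5.10 on the log2 scale, beside medians of -0.07 and -0.28 over all features. Of the 4 plastid genes with the highest shoot mean, psbA (a photosystem II core protein) differed at 3 h by 5.76, psaA (a photosystem I core protein) by 6.54 and trnI-GAU (a transfer RNA) by 8.31, whereas atpB (an ATP synthase subunit) differed by 0.47 and did not pass (limma adjusted p = 0.0101). All plastid features together took 6.72% to 6.76% of the library total in chilled 3 h shoots and 0.25% to 0.32% in their controls. They also stood higher in T0 replicates 4 to 6 (2.05% to 2.31%) than in replicates 1 to 3 (0.39% to 0.72%), and rbcL differed between these sets by 1.88 (limma adjusted p = 2.8e-05). The part of this plastid share in the nuclear values was not tested. Across the 18 shoot libraries, rbcL had a Pearson r from -0.06 to 0.28 with the 5 nuclear genes on the log2 scale, as a description over libraries that share groups.

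**Figure D4:**
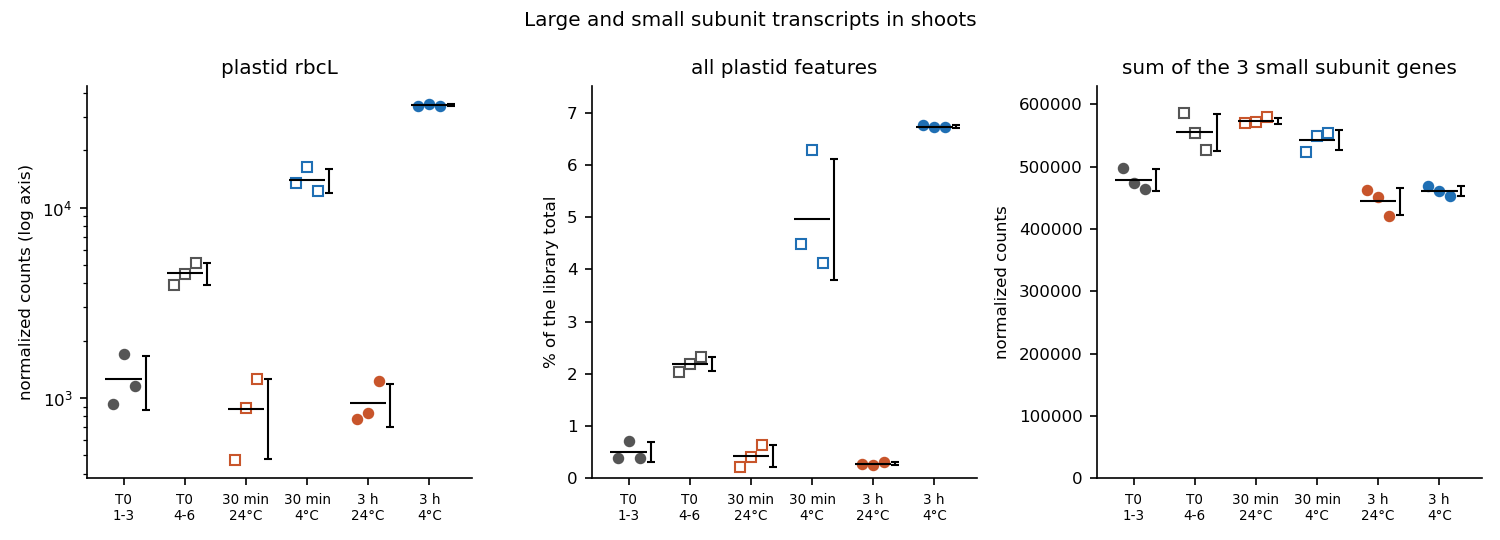
From left to right, rbcL (normalized counts, log axis), all plastid features (% of the library total) and the summed small subunit genes (normalized counts) in the 18 shoot libraries, with group means (lines) and SDs (bars), symbols as in the plot of the 5 genes. The chilled libraries reach 34084 or more for rbcL at 3 h against at most 1221 at 24°C, while the small subunit sums are 460867 and 444201 on average.

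Across shoot libraries the activase genes followed each other closely (Pearson r = 0.98 over 18 libraries on the log2 scale). Of the other tested features, only Solyc07g063120 and Solyc01g110360 were more like Solyc10g086580 than Solyc09g011080 was. Solyc02g085950 and Solyc03g034220 had r = 0.86, and Solyc02g063150 had r = -0.74 and -0.76 with them. The features most like Solyc10g086580 outside the list were Solyc07g063120 (r = 0.98) and Solyc01g110360 (0.98), and those most like Solyc09g011080 were Solyc03g097370 (0.98) and Solyc06g068970 (0.98). For the small subunit genes they were Solyc12g013580 and Solyc07g043570 (0.94 and 0.93 with Solyc02g063150), Solyc08g068290 and Solyc11g066950 (0.95 and 0.95 with Solyc02g085950), and Solyc06g005260 and Solyc06g065970 (0.98 and 0.98 with Solyc03g034220). These are the highest of 20535 features each, the libraries share groups and read formats, and the IDs carry no names in the sources used here.

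Of other genes of the same pathway in the nucleus, 2 shoot genes had a name in the study's supplement, and both were picked after their values were seen. Solyc01g079470 was listed as CP12, a small chloroplast protein that holds Calvin cycle enzymes in an inactive complex. It read 3319.9, 3071 and 3023 normalized counts after 3 h of chilling and 12091, 10484 and 11198 at 24°C, a log2 difference of -1.84 (SE 0.078, limma adjusted p = 1.24e-12). Against T0 it rose by 3.04 at 24°C and by 1.20 at 4°C, so its change over the morning ran opposite to that of the activase genes and was likewise smaller in the cold. Solyc10g086720 was listed as HCEF1, a chloroplast fructose-1,6-bisphosphatase in Arabidopsis. It was low, with 29.9, 33.4 and 29.3 at 4°C and 17.8, 4.18 and 10.2 at 24°C, and differed by 1.63 (SE 0.452, adjusted p = 0.00567). Its log2 difference from T0 was -2.47 at 24°C (limma adjusted p = 4.11e-05) and -0.84 at 4°C (adjusted p = 0.105, not called). Solyc10g086720 thus moved in the same direction as the activase genes, unlike Solyc01g079470.

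In roots, the 5 genes were far lower than in shoots. As a share of the organ's total at T0, Solyc02g063150 was 0.599% in shoots and 0.0021% in roots, Solyc10g086580 was 1.45% and 0.0041%, and all 5 genes had a root share between 0.21% and 0.40% of their shoot share. The lowest shoot library exceeded the highest root library at least 127-fold for each gene at T0. Shoots and roots were normalized separately, so these shares carry no test. rbcL was also lower in roots, at 2.01% of its shoot share at T0.

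None of the 5 genes was called in roots in any comparison, whereas 46% of the 20680 features tested were called between 4°C and 24°C at 3 h, 40.1% between 24°C and T0 and 4.79% between 4°C and T0. Root libraries of a group were widely spread. Solyc10g086580 read 1406, 2828 and 431 normalized counts at T0. The 24°C roots gave 314, 481 and 194, and the 4°C roots 154, 554 and 225. Its SD at T0 was 77.5% of the mean, while in shoots at T0 it was 3.99%. The log2 difference between 4°C and 24°C was -0.20 (95% interval -1.72 to 1.31, or 0.30-fold to 2.49-fold).

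The other members showed the same scatter. Solyc02g085950 read 619, 1561 and 226 normalized counts at T0, 213, 292 and 84.3 at 24°C, and 73.8, 258 and 84.5 at 4°C. Solyc02g063150 ran from 398 to 1395 at T0, 214 to 445 at 24°C and 325 to 393 at 4°C, and Solyc03g034220 from 466 to 1436, 453 to 778 and 296 to 519. In all 3 groups of roots, replicate 2 was the highest library for each of the 5 genes, for rbcL and for the plastid sum. The log2 differences between 4°C and 24°C for the small subunit genes ran from -0.72 (Solyc03g034220, 95% interval -1.58 to 0.14) to 0.19 (Solyc02g063150, -0.73 to 1.11).

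Solyc09g011080 read 4.84, 7.97 and 6.16 normalized counts in roots at 24°C, beside 69.1, 72.4 and 26.1 at T0 and 5.15, 80.25 and 13.4 at 4°C. Every control library was below every T0 library, and the chilled libraries spanned both. It differed by -2.85 between 24°C and T0 (SE 0.812, limma adjusted p = 0.0144) and by 1.42 between 4°C and 24°C (SE 0.812, 95% interval -0.41 to 3.25, adjusted p = 0.159). Neither passed. Without chilled replicate 2 the second value was 0.38.

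Against T0, all 5 genes had negative log2 differences in roots, from -0.33 to -2.85 at 24°C and from -0.97 to -2.35 at 4°C, and the calls depended on single T0 libraries. Without T0 replicate 3, 4 of the 5 genes were called lower at 24°C (all but Solyc03g034220). With all libraries, 40.1% of features were called in that comparison, and the share without this library is not given here. At 4°C, 3 of the 5 were then called lower (Solyc02g085950, Solyc03g034220 and Solyc10g086580), while features called rose from 991 to 1808 of 20680. Without T0 replicate 1 or 2, none was called in either comparison. Without replicate 2, Solyc03g034220 stood at 0.08 at 24°C. Plastid features as a whole moved little across roots, from 8215 to 11686 normalized counts, and rbcL ran from 79.0 to 155. The 4 plastid genes with the highest root mean were rpl2, atpB, rps7 and atpE, with log2 differences between 4°C and 24°C from 0.29 (rps7) to 0.86 (atpB), of which atpB passed (limma adjusted p = 0.00716). The Pearson r of rbcL and of the plastid sum with the 5 genes over the 9 root libraries ran from -0.12 to 0.31, while Solyc10g086580 and Solyc02g085950 had r = 0.98 with each other. The features most like the members in roots were Solyc02g070970 and Solyc08g076220 for Solyc10g086580 (0.99 and 0.99), Solyc01g102650 and Solyc05g006010 for Solyc09g011080 (0.94 and 0.94), Solyc07g044860 and Solyc01g111630 for Solyc02g063150 (0.97 and 0.96), Solyc08g076220 and Solyc02g020940 for Solyc02g085950 (0.98 and 0.98), and Solyc12g056830 and Solyc05g052600 for Solyc03g034220 (0.96 and 0.91).

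**Figure D5:**
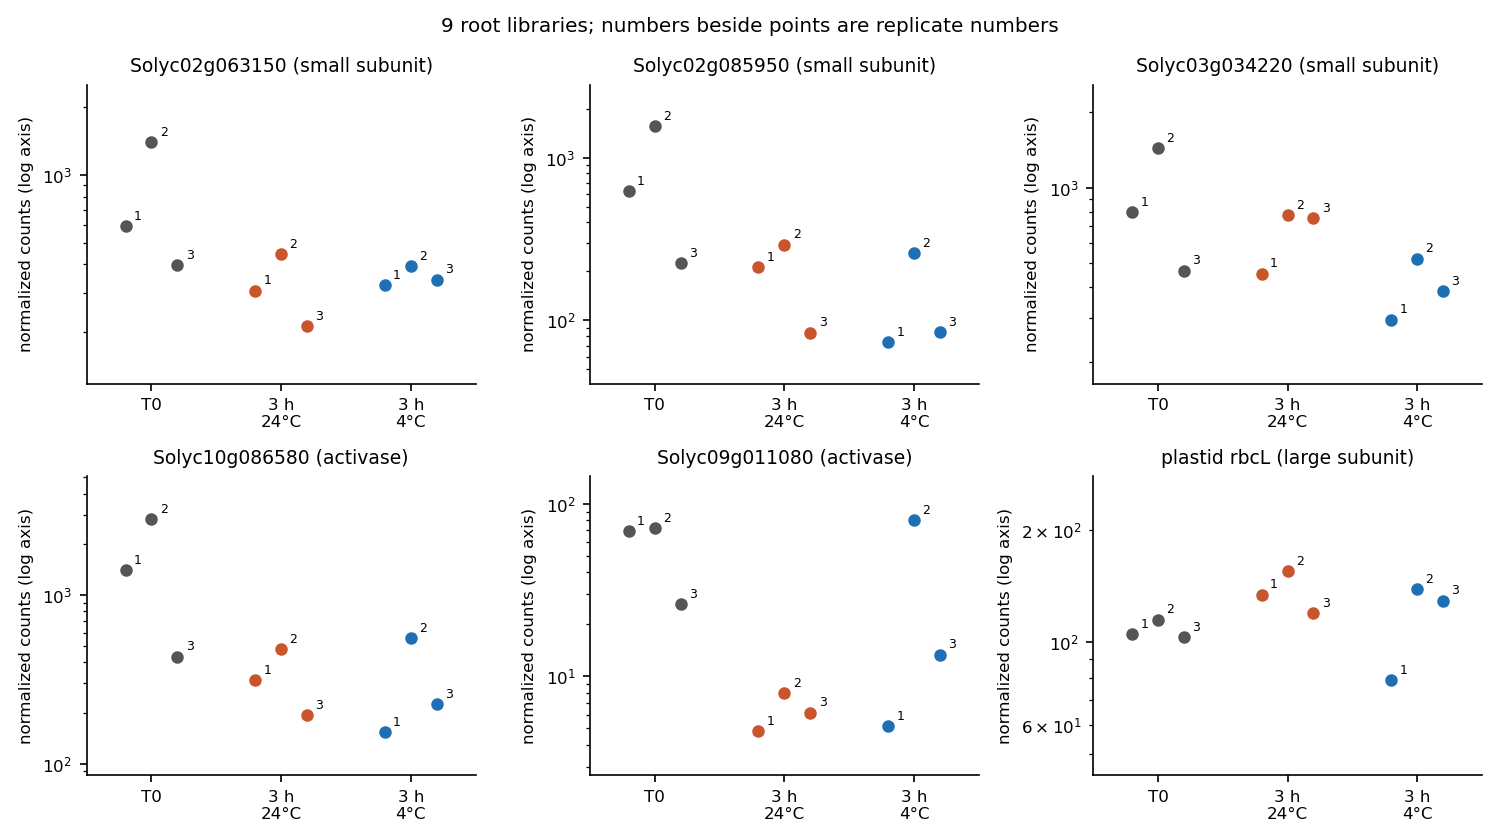
Normalized counts (log axis) of the 5 genes and rbcL in each of the 9 root libraries, with the replicate number beside each point. Replicate 2 is the highest of its group for all 5 genes and rbcL in all 3 groups, and T0 values of Solyc10g086580 span 431 to 2828.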

How the data were processed

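Per the labels and the study's methods, reads were mapped with BBMap (default parameters) to the ITAG 3.2 genome plus both organelle genomes. They were counted per gene by featureCounts. The deposited signal values are these counts after the authors' TMM normalization in edgeR, shoots and roots apart. Of these tools, the methods give a version for BBMap only. Libraries of an organ share 1 total and whole reads could not be recovered, so depth is unknown from the values and no count test was run. All 27 libraries entered, and 0 columns went unused. Groups came from the sample labels and read format from the study's read summary, whose split of the shoot libraries matches the batches named in its supplement, which numbers no T0 replicates.

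Features reaching 10 in 3 or more libraries of an organ were tested with limma 3.58.1 (R 4.3.3) on log2(value + 1), with variance moderated along the mean and 1 fit per organ (shoots as 6 groups, T0 split by read format). Contrasts with T0 used the mean of both T0 sets. The threshold was an adjusted p under 0.01 (Benjamini-Hochberg), and intervals are 95%. The fit was tested on simulated data. Named genes were the 5 members, rbcL, the 4 plastid genes of highest mean per organ, and for each member and organ the 2 features of highest Pearson correlation. Solyc01g079470 and Solyc10g086720 fall outside this rule and were picked after their values were seen. Members and lists were chosen with earlier results of these data known. Calvin cycle, assembly and light-harvesting lists, promoters and sequences were not analysed here, because nuclear IDs could not be paired with the reference table. The table matched 165 shoot and 81 root organelle features. Alternatives changed the pseudocount (0.5 or 10), the filter (none or 50), the scaling, the moderation, the threshold (0.05), the libraries fitted, the T0 set, the replicate block and each library in turn.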

Additional observations from a re-analysis of the deposited data

Results flagged for a closer look

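In shoots, the difference between 4°C and 24°C was larger at 3 h than at 30 min for both activase genes, by a direct test of that change (limma, adjusted over 20535 features). The log2 difference grew by 1.576 for Solyc09g011080 (95% interval 1.36 to 1.79) and by 0.812 for Solyc10g086580 (0.64 to 0.99). The 30 min and 3 h libraries have different read formats and batches, each the same within its own comparison of 4°C with 24°C, so a change with time and one with format or batch cannot be told apart.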

How the results depend on the processing

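The higher level of both activase genes at 3 h in chilled shoots kept its direction and its call in 30 of 30 alternatives, with log2 differences from 0.81 to 1.10 for Solyc10g086580 and from 1.66 to 1.99 for Solyc09g011080. For the listed results that changed, the cause was not tested.

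Rescaling over all features or over nuclear genes raised the members called at 3 h between 4°C and 24°C from 2 to 5 (both scalings), and lowered them against T0 at 4°C from 2 to 1 at 30 min and from 4 to 1 at 3 h. Solyc02g063150 turned to -0.054 and -0.056 (3 h, 24°C against T0) and to 0.045 and 0.048 (30 min, 4°C against T0), Solyc02g085950 to 0.093 and 0.096 in the latter, and Solyc10g086580 to 0.068 and 0.07 between T0 sets. The share of calls that were higher moved from 24.4% to 53.9% for 4°C against 24°C at 3 h in shoots with nuclear scaling, from 47% to 58.9% at 30 min and from 39.1% to 50.9% in roots. Against T0 it moved from 42.5% to 55%, 65.4% to 45.3%, 25.5% to 57.4% and 28.4% to 47.8% in shoots (24°C at 30 min and 3 h, then 4°C) and from 59.6% to 48% in roots at 24°C. It moved from 34.1% to 64.3% for the growth of the cold difference and from 33.8% to 54.5% between T0 sets. As a share of nuclear values only, the small subunit sum at 4°C was 2.808% at 30 min and 2.431% at 3 h, and the activase sum 1.323% and 1.347%.

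With T0 of the same read format, features called were 1743 and 5263 at 24°C (30 min, 3 h) and 1457 and 2888 at 4°C, and members called were 2 at 3 h in each arm and 0 at 30 min in 4°C. Solyc02g063150 turned to 0.133, -0.114, 0.157 and -0.065 in these comparisons, Solyc02g085950 to -0.066 at 30 min in 24°C, and Solyc03g034220 to 0.002 (3 h, 24°C), -0.003 (30 min, 4°C) and 0.037 (3 h, 4°C). With T0 of the other format, 5349 (24°C) and 4389 (4°C) features were called at 30 min, with 4 members at 4°C and Solyc02g085950 at 0.129. With T0 as 1 group, features called were 713 (30 min, 4°C against 24°C), 1332 (30 min, 24°C against T0, 1 member), 781 (30 min, 4°C against T0, 0 members), 3065 (3 h, 4°C against T0, 1 member) and 1160 (growth of the cold difference).

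At an adjusted p under 0.05, features called rose to 2437 (30 min, 4°C against 24°C), 5674 and 4355 (30 min at 24°C and 4°C against T0), 2911 (roots, 4°C against T0), 4686 (growth of the cold difference) and 7444 (T0 sets), and 3 members passed in roots at 24°C against T0. With only the libraries compared, they were 799 (30 min, 4°C against 24°C), 1090 (30 min, 4°C against T0, 0 members), 450 (roots, 4°C against T0) and 3175 (T0 sets), with 1 member in roots at 24°C against T0. Moderation without a trend left 1 member at 30 min in 4°C against T0. In roots at 24°C against T0, the main fit called 40.1% of features, and the share under these settings is not given here.

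Replicate numbers showed no pairing in roots: same-numbered deviations correlated at -0.12 to 0.033, and 0 of 9 libraries were most like their own number. In shoots the correlations ran from -0.056 to 0.445 (median 0.005), and 6 of 30 pairs were over 0.1. There, 8 of 15 libraries were most like their own number. Whether shoot numbers mark paired samples was not tested, and the main fits used no replicate block. In shoots, fits with the block left out T0 replicates 4 to 6 and took replicates 1 to 3 as T0. Block and T0 set therefore changed together, and the log2 differences that follow equal those with T0 replicates 1 to 3 alone. The replicate block gave 5859 and 4795 features at 30 min (24°C and 4°C against T0), with 4 members at 4°C and Solyc02g085950 at 0.129. At 3 h it gave 2 members in each arm and 3131 features at 4°C, with Solyc02g063150 at -0.114 and -0.065 and Solyc03g034220 at 0.002 and 0.037 (24°C, 4°C). In roots it gave 3 members at 24°C and, at 4°C, 606 features and 1 member against T0. At 24°C against T0, the main fit called 40.2% of features in shoots at 3 h and 40.1% in roots. Shares with the block are not given here for those comparisons. No block could be fitted between T0 sets.

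Leaving out 1 library at a time gave 795 to 1397 features for 4°C against 24°C at 30 min (795 without chilled replicate 1), 2136 to 3755 for 24°C against T0 at 30 min (2136 without control replicate 2), 1531 to 2384 for 4°C against T0 at 30 min (1531 without chilled replicate 1, with 1 to 3 members) and 406 to 1808 for roots at 4°C against T0 (406 without chilled replicate 2, 1808 without T0 replicate 3). Members called ranged from 2 to 4 at 3 h in 4°C against T0 (2 without chilled replicate 3), and in roots against T0 from 0 to 4 at 24°C and 0 to 3 at 4°C. For 4°C against 24°C, Solyc02g063150 ranged from -0.043 to 0.104 at 30 min, -0.026 to 0.1 at 3 h and -0.068 to 0.46 in roots, and Solyc10g086580 from -0.008 to 0.052 at 30 min and -0.725 to 0.194 in roots. At 30 min in 4°C against T0, Solyc02g063150 ranged from -0.133 to 0.014 and Solyc02g085950 from -0.093 to 0.036. In roots against T0, Solyc03g034220 ranged from -0.733 to 0.079 at 24°C and rbcL from -0.088 to 0.315 at 4°C, and the growth of the cold difference of Solyc02g063150 from -0.055 to 0.092.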
